A study of Mus musculus with 6 samples.

Results

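The transcripts of 10 genes of cell-cycle arrest and senescence were examined in mouse epididymal fat, a visceral depot beside the testis. They were the 7 cyclin-dependent kinase (CDK) inhibitors Cdkn1a, Cdkn1b, Cdkn1c, Cdkn2a, Cdkn2b, Cdkn2c and Cdkn2d, the stress-response factor Trp53, its inhibitor Mdm2 and the lamin gene Lmnb1. The members were chosen by name from the 54532 identifiers of the count table, matched to gene symbols in GENCODE M21 (build GRCm38), and all 10 passed the filter on low counts. RNA-Seq was done on whole epididymal fat from untreated male C57BL/6J mice fed a normal diet (ND, 4.5% fat) or a high-fat diet (HFD, 60% fat), with 3 libraries per diet. The mice were 4 weeks old when feeding started and were fed for 16 weeks, so the tissue was from animals of about 20 weeks, and no allele or drug separated the groups. The question put to the data was whether the genes that hold the cell cycle differed between the fat of the ND and HFD mice. The labels do not say whether the 3 libraries of a diet came from separate mice, so the p-values measure only the spread between these libraries, which may be technical.

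CDK inhibitors are small proteins that bind cyclin-dependent kinases or their cyclins and stop a cell from passing from G1 into DNA synthesis. The Cip/Kip proteins p21 (Cdkn1a), p27 (Cdkn1b) and p57 (Cdkn1c) bind many cyclin-CDK complexes. The INK4 proteins p16 (Cdkn2a), p15 (Cdkn2b), p18 (Cdkn2c) and p19 (Cdkn2d) bind Cdk4 and Cdk6, which keeps the retinoblastoma protein active. Cdkn2a also encodes, from another first exon, the Arf protein that holds Mdm2 away from p53. The p53 protein switches on Cdkn1a and Mdm2, and Mdm2 in turn marks p53 for destruction. In senescence, a lasting arrest of damaged or stressed cells, p16 and p21 commonly rise, lamin B1 is lost and many secreted factors are released. In fat, p18 and p27 are known to take part when fat cell precursors leave the cycle to become adipocytes.

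Of the 10 genes, 3 differed between the diets at an adjusted p-value under 0.05 by edgeR's quasi-likelihood test: Cdkn1a and Mdm2 were higher and Cdkn2c was lower on HFD. Across all 15751 genes tested, 15.9% differed, with 9.85% higher and 6.04% lower on HFD. DESeq2 called the same 3 genes in the same directions, beside 19.1% of the genes it tested (10.7% higher and 8.42% lower). The RefSeq promoter windows of these 3 genes, 250 bases before to 50 bases after each annotated start in GRCm38.p6, are printed because they are the genes whose level moved, and each is written 5′ to 3′ on the strand of its gene. The capitals mark 3 motifs that were searched on both strands and do not overlap one another here: CATGNNNNNNCATG, the spaced core pair of a p53-type element; GGGCGG, a GC box, or CCGCCC where it reads on the other strand; and CACGTG, an E-box.
Cdkn1a, upstream start, chr17:29090729-29091028, plus strand: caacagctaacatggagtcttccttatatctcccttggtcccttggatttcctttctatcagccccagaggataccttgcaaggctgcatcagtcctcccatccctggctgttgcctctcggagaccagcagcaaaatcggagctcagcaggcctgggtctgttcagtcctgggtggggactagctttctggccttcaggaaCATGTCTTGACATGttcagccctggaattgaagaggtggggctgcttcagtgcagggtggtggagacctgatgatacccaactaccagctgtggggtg
Cdkn1a, downstream start, chr17:29093519-29093818, plus strand: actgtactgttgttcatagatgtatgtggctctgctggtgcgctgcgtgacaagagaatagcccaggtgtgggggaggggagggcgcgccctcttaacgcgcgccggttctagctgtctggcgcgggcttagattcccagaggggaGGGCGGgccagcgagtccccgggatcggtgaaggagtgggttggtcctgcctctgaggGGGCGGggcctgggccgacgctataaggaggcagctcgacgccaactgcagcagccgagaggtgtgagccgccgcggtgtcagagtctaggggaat
Mdm2, chr10:117710709-117711008, minus strand: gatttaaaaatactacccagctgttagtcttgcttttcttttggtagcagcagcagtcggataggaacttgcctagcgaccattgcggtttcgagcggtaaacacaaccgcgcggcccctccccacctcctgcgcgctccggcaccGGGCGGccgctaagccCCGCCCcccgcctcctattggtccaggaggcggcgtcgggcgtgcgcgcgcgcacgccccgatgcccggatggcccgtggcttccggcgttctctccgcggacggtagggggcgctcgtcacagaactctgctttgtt
Cdkn2c, upstream start, chr4:109666707-109667006, minus strand: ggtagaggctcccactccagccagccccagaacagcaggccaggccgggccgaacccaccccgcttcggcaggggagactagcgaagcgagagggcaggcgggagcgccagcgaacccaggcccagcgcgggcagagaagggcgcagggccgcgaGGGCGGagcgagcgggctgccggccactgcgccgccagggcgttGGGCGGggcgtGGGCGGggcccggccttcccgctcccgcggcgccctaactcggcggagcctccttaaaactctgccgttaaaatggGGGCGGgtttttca
Cdkn2c, downstream start, chr4:109665323-109665622, minus strand: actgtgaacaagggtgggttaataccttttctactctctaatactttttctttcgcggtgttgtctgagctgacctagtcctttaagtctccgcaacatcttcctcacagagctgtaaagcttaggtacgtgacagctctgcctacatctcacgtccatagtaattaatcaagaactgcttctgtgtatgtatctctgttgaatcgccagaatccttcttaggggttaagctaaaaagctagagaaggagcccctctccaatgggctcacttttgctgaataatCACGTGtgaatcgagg

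RefSeq windows were found for 8 of the 10 genes, 11 windows in all. Among these 11, the p53-type pair was found in 1, the upstream Cdkn1a window, where CATGTCTTGACATG lies from -48 to -35 relative to that start; the pair occurs in 0.712% of all 32851 promoter windows in the table. The GC box was present in 8 of the 11 windows, against 35.7% of all windows: in the downstream Cdkn1a, the Mdm2 and the upstream Cdkn2c window, and also in those of Cdkn1b, Cdkn2a (both), Cdkn2b and Cdkn2d, genes that did not pass the threshold. The upstream Cdkn2c window held 4 GC boxes, and the downstream one held none and carried an E-box from 35 to 40 bases after its start; an E-box occurs in 7.15% of all windows. These matches describe letters in the windows, and factor binding was not measured. The p53-type pattern asks for CATG in both parts at a fixed spacing. Other p53-type sequences, and sites outside the windows, were not searched, so a window without the pair does not show a gene without such an element.

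Library depth was similar across the diets, with count totals between 16996896 and 18859320. Same-diet libraries differed by more than sampling noise (a chi-square per gene of 21.7 or more), so all 6 were kept as separate samples. The adipocyte markers Adipoq and Fabp4 were abundant on both diets, with mean CPM (counts scaled to the TMM-adjusted library size) of 3303 and 12431 on ND, against 2311 and 10495 on HFD. The summed CPM of 15 macrophage markers rose from between 1952 and 2063 on ND to between 5307 and 13985 on HFD, and 12 of the 15 were higher and none lower by edgeR's test, with none at 0 in all libraries. The 15 adipocyte markers summed to between 47601 and 63594 on ND and between 25588 and 48441 on HFD, with 1 higher (Lep) and 2 lower (Cfd and Slc2a4). No marker of progenitors and fibroblasts (12 tested), endothelium (10), lymphocytes (11), mesothelium (7) or epithelium and cilia (5) passed the threshold, while 2 of 5 neutrophil markers were higher and 1 lower. The third ND library stood apart in its epithelial and ciliary transcripts, which summed to 289 CPM against 13.2 to 17.3 CPM in the other 5 libraries. In bulk tissue, fewer cells of a type and less RNA per cell cannot be told apart, and the part that cell composition had in the results below was not tested.

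**Figure D1:**
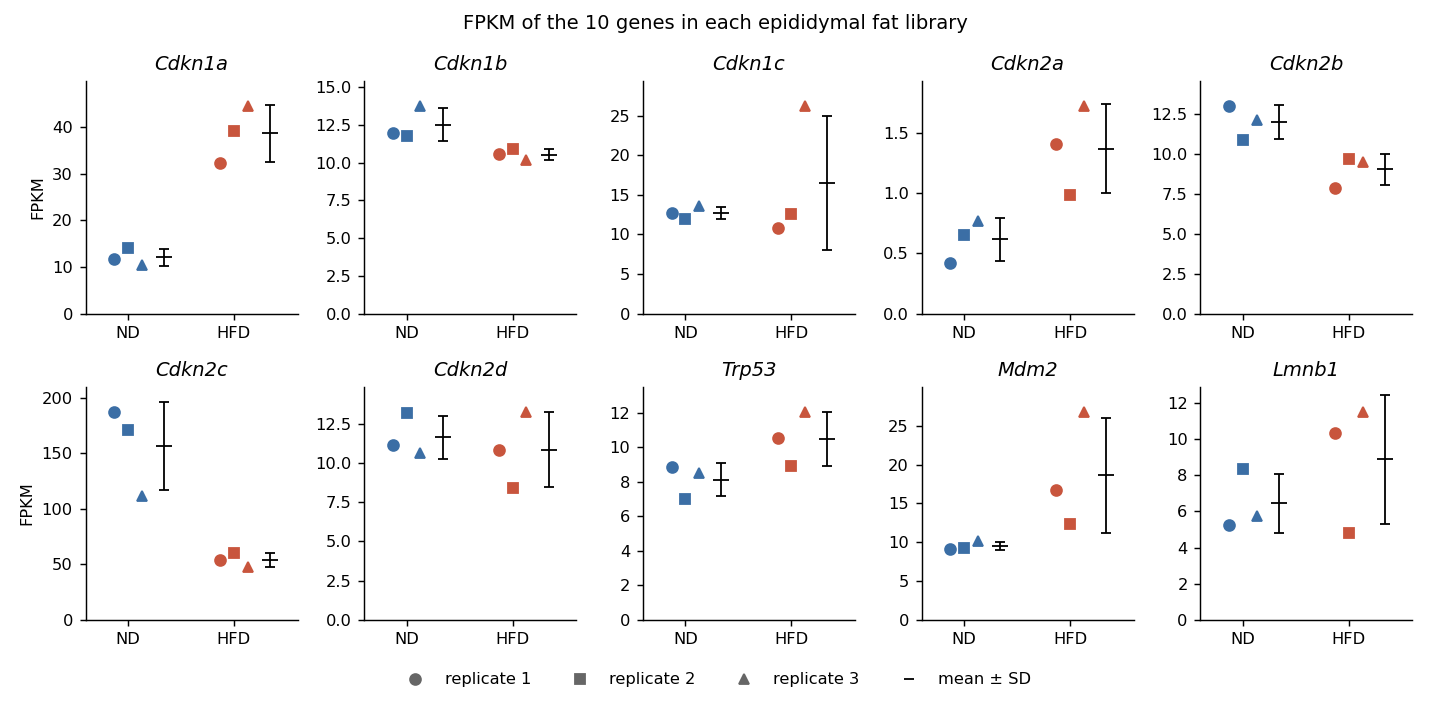
Level of each of the 10 genes (FPKM, vertical axis from 0) in the 3 ND (blue) and 3 HFD (red) libraries, with the marker shape giving the replicate number and black bars the mean ± SD (n = 3). Cdkn1a sat between 10.5 and 14.04 on ND and between 32.3 and 44.5 on HFD, and Cdkn2c between 112 and 187 on ND and between 47.2 and 60.3 on HFD, while the diets overlapped for Cdkn1c, Cdkn2d and Lmnb1.

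Among the Cip/Kip genes, Cdkn1a (ENSMUSG00000023067, chromosome 17 from 29090976 to 29100727, plus strand) changed and the other two members did not pass the threshold. Its level in FPKM, which scales for gene length and library depth, was 11.7, 14.04 and 10.5 across the ND libraries, against 32.3, 39.1 and 44.5 on HFD. All 3 HFD libraries lay above all 3 ND libraries, and the lowest HFD level was 2.30 times the highest ND level. The raw counts behind these levels ran from 743 to 843 on ND and from 2093 to 2741 on HFD, so counting error is small beside the spread. The fitted log2 fold change was 1.69 (SE 0.17), a 3.23-fold higher level on HFD (adjusted p = 0.00402, edgeR's quasi-likelihood test). A transcript annotated on the opposite strand, AC167363.2, overlaps an exon of Cdkn1a and had between 2 and 12 counts per library.

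Cdkn1b (ENSMUSG00000003031, chromosome 6 from 134920401 to 134925513, plus strand), which encodes p27, had FPKM of 12.0, 11.8 and 13.8 on ND and 10.6, 10.9 and 10.2 on HFD. Each HFD library was below each ND library, but by little. The log2 fold change of -0.23 (SE 0.11) did not pass the threshold (adjusted p = 0.189, edgeR). Cdkn1c (ENSMUSG00000037664, chromosome 7 from 143458339 to 143461050, minus strand), an imprinted gene that encodes p57, had FPKM of 12.7, 11.9 and 13.5 on ND and 10.9, 12.5 and 26.2 on HFD. Only the third HFD library was high, and the other two HFD libraries were within or below the ND range. Its log2 fold change was 0.39 (SE 0.32, adjusted p = 0.430, edgeR) and turned to -0.12 without the third HFD library.

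In the INK4 group, Cdkn2c (ENSMUSG00000028551, chromosome 4 from 109660876 to 109667189, minus strand) fell and the others did not pass the threshold. The FPKM of this gene, which encodes p18, was 187, 171 and 112 on ND and 53.7, 60.3 and 47.2 on HFD. The HFD libraries were all below the ND libraries, and the third ND library, the one with the epithelial and ciliary transcripts, was the lowest of its diet. In counts the gene was read 5994 to 9140 times on ND and 2197 to 2676 times on HFD. Its log2 fold change was -1.53 (SE 0.22), a 2.88-fold higher level on ND (adjusted p = 0.00888, edgeR). Without the third ND library the log2 fold change was -1.75 (adjusted p = 0.0230, edgeR), and that of Cdkn1a was 1.57 (adjusted p = 0.0235, edgeR).

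Cdkn2a (ENSMUSG00000044303, chromosome 4 from 89274471 to 89294653, minus strand), whose p16 product is the INK4 protein most often read as a senescence marker, was close to the low end of detection. It had 9, 13 and 18 counts on ND and 30, 19 and 35 counts on HFD. The corresponding FPKM was 0.422, 0.656 and 0.771 on ND and 1.41, 0.982 and 1.72 on HFD. Every HFD library was above every ND library, but the second HFD library was only 1.27 times the highest ND library. The log2 fold change of 1.16 (SE 0.40) did not pass the threshold (adjusted p = 0.0883, edgeR). These gene-level counts pool the p16 and Arf transcripts, so a change of either product alone was not measured.

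The neighbouring gene Cdkn2b (ENSMUSG00000073802, chromosome 4 from 89306299 to 89311039, minus strand) lies 11645 bases from Cdkn2a and encodes p15, an INK4 protein known to respond to TGF-beta. Its FPKM was 13.02, 10.9 and 12.2 on ND and 7.90, 9.72 and 9.51 on HFD. The HFD libraries lay below the ND libraries without overlap, and the log2 fold change was -0.40 (SE 0.15, adjusted p = 0.117, edgeR). The fitted values of these neighbours thus had opposite signs, with neither past the threshold. Cdkn2d (ENSMUSG00000096472, chromosome 9 from 21288410 to 21291407, minus strand), which encodes the INK4 protein p19, had FPKM of 11.1, 13.2 and 10.6 on ND and 10.8, 8.43 and 13.2 on HFD. The ranges overlapped, and its log2 fold change was -0.09 (SE 0.19, adjusted p = 0.787, edgeR).

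Taking levels per length, Cdkn2c was the most abundant of the 10 genes on both diets, and on ND no other member overlapped it. On ND, Cdkn1c, Cdkn1b, Cdkn1a, Cdkn2b and Cdkn2d followed in that order with means between 11.6 and 12.7 FPKM, and each overlapped the next in its range over libraries. Mdm2 (9.48), Trp53 (8.13) and Lmnb1 (6.45) came below them, with Trp53 and Lmnb1 overlapping, and Cdkn2a was lowest at 0.616 FPKM. On HFD, Cdkn1a stood second, where on ND it was the fourth, with a mean of 38.6 ± 6.10 FPKM (SD, n = 3), against 53.8 ± 6.57 for Cdkn2c, and their ranges did not overlap. Mdm2 and Cdkn1c came next at 18.6 and 16.5 FPKM, with overlapping ranges, and Cdkn2a stayed lowest at 1.37 FPKM.

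**Figure D2:**
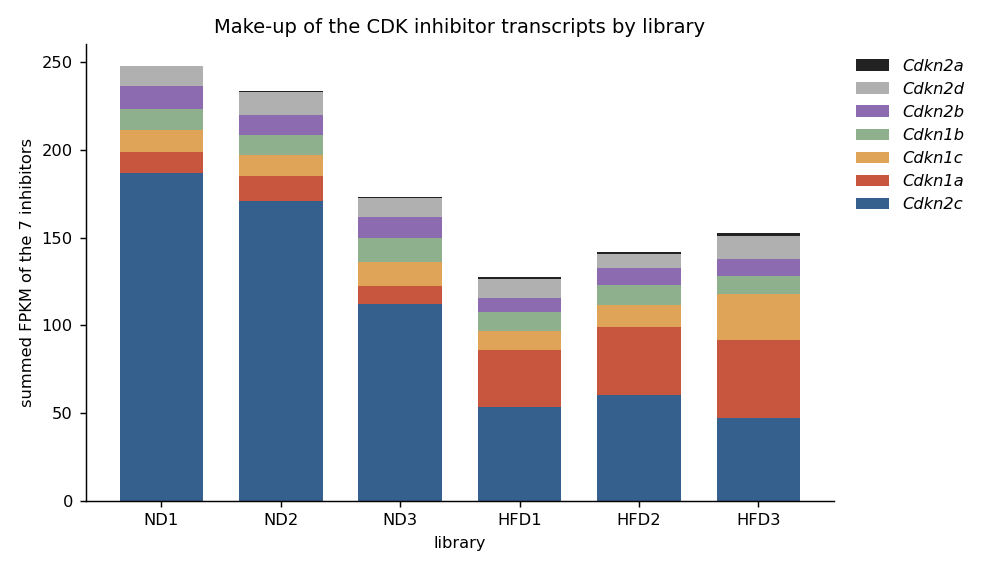
Summed level of the 7 CDK inhibitors in each library (FPKM, vertical axis from 0), with colours giving each gene's part and ND1 to ND3 and HFD1 to HFD3 along the horizontal axis. Cdkn2c (blue) made up 64.6% to 75.4% of the sum on ND and 30.9% to 42.5% on HFD, and Cdkn1a (red) 4.73% to 6.05% on ND and 25.3% to 29.2% on HFD.

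The make-up of the inhibitor transcripts moved with these changes. The summed FPKM of the 7 inhibitors was 248, 234 and 173 on ND and 128, 142 and 153 on HFD, with the HFD libraries all lower. The FPKM ratio of Cdkn2c to Cdkn1a was 15.9, 12.2 and 10.7 on ND and 1.66, 1.55 and 1.06 on HFD. Per length, p18 transcripts thus exceeded p21 transcripts in each of the 6 libraries, but by far less on HFD. In the third HFD library the raw counts had the other order, with 2197 for Cdkn2c and 2741 for Cdkn1a. Cdkn2a contributed between 0.170% and 0.444% on ND and between 0.692% and 1.13% on HFD of the same sum. These shares describe the composition of the transcripts and carry no test of their own.

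For the p53 axis, Trp53 (ENSMUSG00000059552, chromosome 11 from 69580359 to 69591873, plus strand) had FPKM of 8.85, 7.02 and 8.51 on ND and 10.5, 8.89 and 12.0 on HFD. The diets did not overlap, but the lowest HFD library was almost level with the highest ND library. Its log2 fold change was 0.38 (SE 0.16, adjusted p = 0.132, edgeR), and the processed pseudogene Trp53-ps, which could share reads with it, had 8 to 15 counts per library. Mdm2 (ENSMUSG00000020184, chromosome 10 from 117688875 to 117710758, minus strand), the ubiquitin ligase that limits p53, had FPKM of 9.07, 9.28 and 10.1 on ND and 16.7, 12.4 and 26.8 on HFD. All HFD libraries were above all ND libraries, with the third HFD library far above the other two. The log2 fold change was 0.99 (SE 0.27), a 1.98-fold higher level on HFD that passed the threshold narrowly (adjusted p = 0.0479, edgeR).

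The Mdm2 call was lost in 10 of 16 alternative fits, among them 4 of the 6 that left out 1 library, where its log2 fold change ran from 0.61 to 1.22 with adjusted p-values from 0.00759 to 0.148 (edgeR). It was not called without the first, the second or the third ND library (adjusted p = 0.148, 0.133 and 0.106, edgeR) or without the first HFD library (adjusted p = 0.118, edgeR). The ratio of Mdm2 to Trp53 per length was 1.02, 1.32 and 1.19 on ND and 1.59, 1.39 and 2.22 on HFD, without overlap. Lmnb1 (ENSMUSG00000024590, chromosome 18 from 56707813 to 56753424, plus strand) encodes lamin B1, a nuclear envelope protein whose loss is a feature of senescent cells. Its FPKM was 5.27, 8.33 and 5.76 on ND and 10.3, 4.83 and 11.5 on HFD. The first and the third HFD libraries were the highest of the 6 and the second HFD library the lowest. The log2 fold change was 0.48 (SE 0.33, adjusted p = 0.354, edgeR) and passed the threshold only without the second HFD library (0.78, adjusted p = 0.0380, edgeR).

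**Figure D3:**
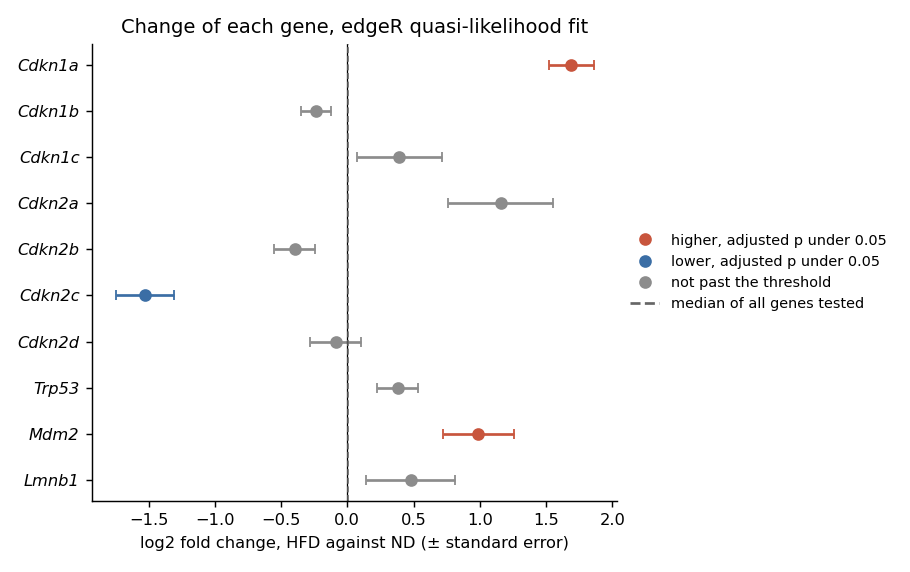
Log2 fold change of HFD against ND with its standard error (horizontal axis) for each of the 10 genes (vertical axis), from edgeR's quasi-likelihood fit over 3 libraries per diet. Cdkn1a (1.69) and Mdm2 (0.99) are coloured red as higher, Cdkn2c (-1.53) blue as lower, the rest grey did not pass the threshold, and the dashed line is the median of all genes tested (0.01).

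Counted together, 7 of the 10 genes had diets that did not overlap in CPM, 4 higher and 3 lower on HFD, beside 40.9% of all genes tested (21.7% higher and 19.1% lower). The share of all genes called ranged from 2.03% to 24.2% over the 16 alternative fits. Cdkn1a was called in all 16, with log2 fold changes between 1.56 and 1.81. Cdkn2c was likewise called in all 16, between -1.75 and -1.39, although its adjusted p-value reached 0.0495 without the first HFD library (edgeR). No alternative called Cdkn1b, Cdkn1c, Cdkn2a, Cdkn2b, Cdkn2d or Trp53.

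**Figure D4:**
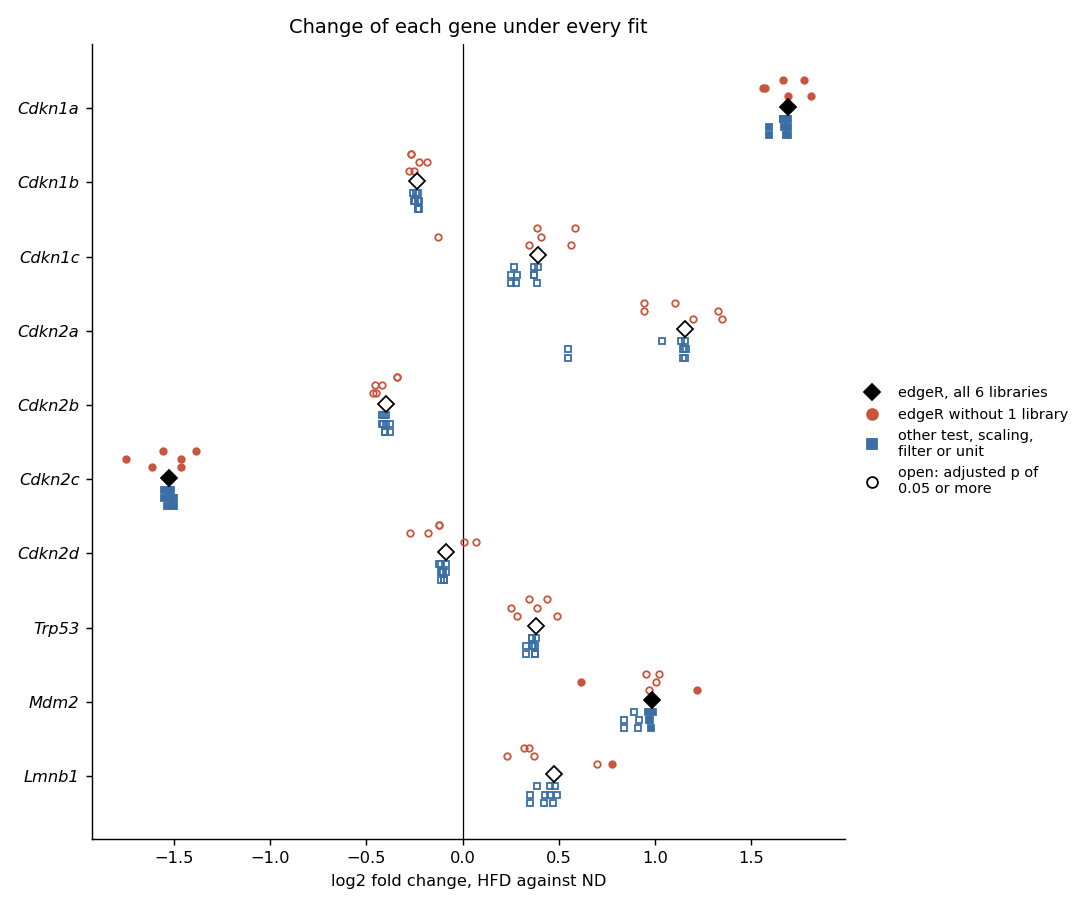
Log2 fold change of HFD against ND (horizontal axis) for each of the 10 genes (vertical axis) under the edgeR fit to all 6 libraries (black diamonds), the 6 fits without 1 library (red circles) and the 10 other fits (blue squares), filled where the adjusted p-value was under 0.05. Cdkn1a (1.56 to 1.81) and Cdkn2c (-1.75 to -1.39) are filled throughout, whereas Mdm2 is filled in 6 of its 16 alternatives and Cdkn1c and Cdkn2d cross 0.

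Of 33 other canonical p53 targets tested, with Cdkn1a and Mdm2 left aside, 3 were higher and 1 was lower on HFD, beside 9.85% higher and 6.04% lower over all genes. Their median log2 fold change was 0.30, against 0.01 over all genes. At an unadjusted p-value under 0.05, 13 were higher and 1 was lower. The share of all genes at that threshold was not counted. It is larger than the 15.9% called, because adjustment only raises p-values, so the 13 are not read as an excess. DESeq2 called 6 higher and 1 lower, beside 10.7% higher and 8.42% lower of all the genes it tested. Aen, a nuclease gene of apoptosis, had 21.8, 23.8 and 16.9 CPM on ND against 36.2, 37.9 and 40.1 CPM on HFD (log2 fold change 0.87, SE 0.15, adjusted p = 0.0130, edgeR). Apaf1, a scaffold of the apoptosome, rose by 0.78 (SE 0.18) and Polk, a DNA polymerase that copies past damage, by 0.67 (SE 0.16) on the log2 scale, each with its call lost in 7 of the 16 alternatives. Bbc3, which encodes the death-promoting protein Puma, moved the other way, from 31.2, 28.1 and 24.2 CPM on ND to 15.0, 12.5 and 14.7 CPM on HFD (log2 fold change -0.98, SE 0.15, adjusted p = 0.00991, edgeR). The Aen call was lost in 3 of the 16 alternatives and the Bbc3 call in 1. The p53 target and cell-cycle regulator Ccng1 had CPM of 128 to 177 on ND and 188 to 224 on HFD and did not pass the threshold (adjusted p = 0.0711, edgeR).

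Among 19 regulators of p53 tested, the median log2 fold change was 0.02. None was higher and 1 was lower, beside 9.85% higher and 6.04% lower over all genes. The one was Trp63, a p53 relative known for its role in stratified epithelia. It had 6.48, 10.96 and 9.90 CPM on ND against 0.656, 1.02 and 0.288 CPM on HFD, a log2 fold change of -3.79 (SE 0.46, adjusted p = 0.00651, edgeR) that was -3.75 without the third ND library. Mdm4, the other p53 inhibitor of the Mdm2 family, had 60.1 to 86.7 CPM on ND against 68.1 to 76.2 CPM on HFD, and its log2 fold change was -0.05 (SE 0.15).

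The kinases and cyclins that the inhibitors act on gave no call by edgeR's test, with 0 of 17 tested genes higher and 0 lower. Over all genes, 9.85% were higher and 6.04% lower. At an unadjusted p-value under 0.05, 3 of the 17 were higher and none lower. The share of all genes at that threshold was not counted and is larger than the share called, so the 3 are not read as an excess. DESeq2 called 2 higher, beside 10.7% of all the genes it tested. The median log2 fold change of the 17 genes was 0.52. Cdk6, a target of the INK4 proteins, had 10.7, 10.8 and 19.9 CPM on ND against 35.2, 16.9 and 56.4 CPM on HFD. The second HFD library fell within the ND range, and the log2 fold change of 1.39 (SE 0.45) did not pass the threshold (adjusted p = 0.0760, edgeR). Its partner kinase Cdk4 was at 72.8 to 75.6 CPM on ND against 64.1 to 109 CPM on HFD, and the D-type cyclins Ccnd1, Ccnd2 and Ccnd3 had log2 fold changes of 0.05, 0.18 and -0.37 with overlapping diets.

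Downstream of these kinases, 3 of 13 genes of the retinoblastoma and E2f families were higher and none lower, with a median of 0.30, beside 9.85% higher and 6.04% lower over all genes. E2f1, which drives genes of DNA synthesis, had 11.9, 16.4 and 10.9 CPM on ND against 29.6, 21.9 and 38.7 CPM on HFD (log2 fold change 1.20, SE 0.25, adjusted p = 0.0227, edgeR). E2f3, another activator, rose by 0.62 (SE 0.15) and the repressor E2f6 by 0.42 (SE 0.11) on the log2 scale. Of the 16 alternatives, the E2f6 call was lost in 13 (adjusted p up to 0.163), that of E2f3 in 7 and that of E2f1 in 6. Rb1, the retinoblastoma gene, was at 67.9 to 92.6 CPM on ND against 63.6 to 83.9 CPM on HFD, with overlapping diets.

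Of 27 genes that control the levels of the inhibitors, 3 were higher and 1 was lower on HFD, with a median of -0.13, beside 9.85% higher and 6.04% lower over all genes. Foxo3, a transcription factor that can switch on Cdkn1b, had 35.4, 36.7 and 45.5 CPM on ND against 65.6, 57.5 and 85.4 CPM on HFD (log2 fold change 0.83, SE 0.18, adjusted p = 0.0248, edgeR). Skp2, the ubiquitin ligase subunit that removes p27, rose by 1.30 (SE 0.35), and the growth factor-responsive Myc rose by 1.07 (SE 0.29) on the log2 scale. In both Skp2 and Myc the second HFD library was the lowest of its diet, at 5.12 and 14.2 CPM, and lay just above the ND libraries. The Skp2 call (adjusted p = 0.0483, edgeR) was lost in 10 of the 16 alternatives and the Myc call (adjusted p = 0.0472, edgeR) in 11. That of Foxo3 was lost in 4. Tbx2, a repressor of Cdkn2a and Cdkn1a, had 11.6, 10.96 and 35.1 CPM on ND against 6.23, 5.48 and 4.55 CPM on HFD. Its high ND library was the third, and the log2 fold change of -1.83 (SE 0.48, adjusted p = 0.0426, edgeR) was -1.09 without it (adjusted p = 0.0468, edgeR). The Tbx2 call was lost in 12 of the 16 alternatives, among them the fits that left out any other library (adjusted p from 0.0592 to 0.122, edgeR). The polycomb genes Bmi1, Ezh2 and Cbx7, which silence the Cdkn2a and Cdkn2b locus, had log2 fold changes of -0.03, 0.53 and -0.36 with overlapping diets.

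**Figure D5:**
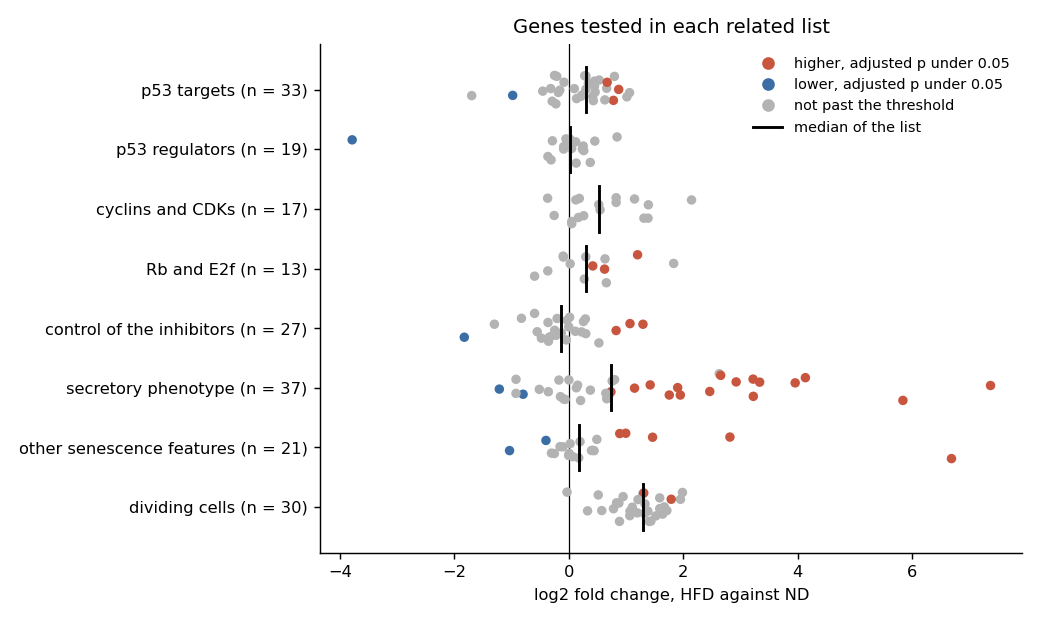
Log2 fold change of HFD against ND (horizontal axis) for the genes tested in each of 8 related lists (vertical axis, with the number of genes), where each point is 1 gene from edgeR's fit, red if higher and blue if lower at an adjusted p-value under 0.05, and the black bar is the list's median. The secretory phenotype list has 16 red and 2 blue points, whereas the dividing-cell list has the highest median (1.30) with 2 red points.

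The list with the most calls was that of secreted or shed proteins of the senescence-associated secretory phenotype, in which 16 of 37 genes tested were higher and 2 were lower, with a median log2 fold change of 0.74, beside 9.85% higher and 6.04% lower over all genes. Mmp12, the macrophage elastase, rose by 7.37 (SE 0.86) and the neutrophil-attracting chemokine Cxcl2 by 3.96 (SE 0.49) on the log2 scale. Gdf15, a stress-induced hormone, had 0.324, 1.51 and 1.70 CPM on ND against 15.1, 5.48 and 41.8 CPM on HFD (log2 fold change 4.13, SE 0.86, adjusted p = 0.0230, edgeR). Igfbp7, a secreted binding protein, and Fgf2, a growth factor, fell by 0.80 and 1.22 on the log2 scale. The Gdf15 call was lost in 7 of the 16 alternatives and the Igfbp7 and Fgf2 calls in 5 each. The Mmp12 and Cxcl2 calls held in all 16. Il6, the classic cytokine of this phenotype, was too low to be tested, with 1 to 6 counts on ND and 4 to 12 on HFD, and Ccl20 was at 0 in all 6 libraries. The macrophage markers moved in the same direction in the same libraries, and the part of macrophages in this list was not tested. None of the markers is in the list, but this only reflects how the lists were written. The list does hold a macrophage gene, Mmp12.

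Of 21 other genes tied to senescence, 5 were higher and 2 were lower on HFD, with a median of 0.17, beside 9.85% higher and 6.04% lower over all genes. Glb1, the lysosomal beta-galactosidase behind the usual senescence stain, had 30.2, 41.1 and 36.9 CPM on ND against 60.7, 57.2 and 82.5 CPM on HFD (log2 fold change 0.89, SE 0.18, adjusted p = 0.0218, edgeR). Lmna, which encodes lamins A and C, rose by 1.46 (SE 0.30) on the log2 scale, while Lmnb2, the second B-type lamin gene, was at 12.3 to 15.5 CPM on ND against 13.6 to 25.5 CPM on HFD and did not pass the threshold. Hmga1, a chromatin protein found in senescent heterochromatin, had 24.0, 23.8 and 20.5 CPM on ND against 139, 65.4 and 276 CPM on HFD (log2 fold change 2.81, SE 0.48, adjusted p = 0.0133, edgeR). Its relative Hmga2, named after its values were seen, had 0, 0 and 4 counts on ND and 112, 17 and 293 counts on HFD. The survival gene Mcl1 rose by 0.99 (SE 0.20). The Glb1, Lmna and Mcl1 calls were each lost in 5 of the 16 alternatives and the Hmga1 call in 6. The nuclear proteins Hmgb1 and Hmgb3 fell by 0.40 and 1.04 on the log2 scale, with the calls lost in 10 and 3 of the 16 alternatives. Hmgb2, whose loss marks early senescence, had a log2 fold change of 0.07 (SE 0.25). Among the called genes named for these lists, exons of Glb1, Hmga1, Hmga2, Hmgb1, Tk1, Igfbp7, Fgf2 and Mmp12 overlap another annotated gene, and reads of such pairs may not be fully separated.

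The counts of these lists depended on which libraries were kept. Without any 1 of the 3 ND libraries or without the first HFD library, at most 1 gene was called higher in each of the lists of p53 targets, retinoblastoma and E2f genes, inhibitor control and other senescence genes, and 4 or 5 in the secretory list (edgeR). The share of all genes called higher also fell in these fits, from 9.85% with all libraries to between 2.08% and 3.78%. Without the second HFD library the counts were 5, 4, 4, 7 and 20, beside 14.5% higher over all genes. Calls were thus lost and gained over all genes, and not only in these lists.

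The genes of dividing cells split the HFD libraries. Of 30 tested, 2 were higher and none lower, beside 9.85% higher and 6.04% lower over all genes. The median log2 fold change of the 30 was 1.30. At an unadjusted p-value under 0.05, 21 had a higher level. The share of all genes higher at that threshold was not counted and is larger than the 9.85% called higher. DESeq2 called 19 of the 30 higher, beside 10.7% of all the genes it tested. The summed CPM of the 30 genes was 334, 476 and 347 on ND and 903, 397 and 1308 on HFD. The second HFD library lay within the ND range and the first and the third HFD libraries far above it. Mki67, the proliferation marker Ki-67, followed the same order with 18.1, 39.7 and 21.6 CPM on ND against 90.6, 26.4 and 130 CPM on HFD (log2 fold change 1.64, SE 0.56, adjusted p = 0.0883, edgeR). Tk1, an enzyme that makes thymidine nucleotides, rose by 1.79 (SE 0.44) and Gmnn, a brake on repeated DNA replication, by 1.31 (SE 0.32) on the log2 scale, with the calls lost in 11 and 9 of the 16 alternatives. Without the second HFD library, 25 of the 30 were higher, beside 14.5% of all genes tested in that fit. These same genes had set that library apart, so the 25 adds no support of its own. The number called higher in this list moved away from 2 in 13 of the 16 alternatives. Cdkn1a in the second HFD library, at 138 CPM, lay between the other two HFD libraries (114 and 158 CPM), whereas Lmnb1 had its lowest level there. The second HFD library was also the lowest of its diet for Cdkn2a, Cdkn2d, Trp53, Mdm2 and the summed macrophage markers. For Cdkn1b, Cdkn2b and Cdkn2c it was the highest of its diet.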

How the data were processed

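RNA-Seq of epididymal fat was analysed in 6 libraries, 3 ND and 3 HFD, grouped by the sample titles. The authors deposited raw counts per gene, without normalization, and FPKM values, which are scaled by gene length and a factor per library. Per the paper's methods, paired-end reads were mapped to GRCm38 with TopHat and Cufflinks, whereas the submitters' processing notes name CASAVA 1.8, fastp, HISAT2 2.0.5, featureCounts 1.5.0-p3 and DESeq2 1.20.0 and a human build; the identifiers are mouse, and the annotation release is not given in the sources used here. The library kit is not stated to keep strand, so reads of overlapping antisense transcripts cannot be separated.

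Counts were tested with edgeR 4.0.16 (R 4.3.3): TMM, filterByExpr, glmQLFit with robust=TRUE, glmQLFTest, diet as the only factor, and Benjamini-Hochberg adjustment over all 15751 genes tested at 0.05. The standard error was derived from the F statistic. Gene names and coordinates came from GENCODE M21, in which 54495 of 54532 identifiers were found. An exact permutation test of 3 libraries against 3 has a smallest p-value of 0.1 and was not used. Fold changes are in log2 of HFD over ND, fitted from the counts. FPKM gives the members' levels per library and sets genes side by side.

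The counts were refitted with limma-voom (limma 3.58.1), with DESeq2 1.42.0 and, in edgeR, with its size factors, without TMM, without a filter, with a minimum of 10 counts in 3 libraries, with the replicate number as a blocking factor and with 1 library removed at a time. The FPKM values were fitted by limma after adding 1 and taking log2, for genes at 0.5 FPKM or more in 3 libraries, then with 0.1 added instead, and then on all genes. Calls were also counted at an absolute log2 fold change of 1 or more. The tests were checked on simulated data. The genes named from each list were up to 3 called higher and 3 called lower with the smallest p-value, the 2 with the highest mean CPM where none was called, plus a fixed set of well-known genes whatever their values; 1 of the genes so chosen is not reported here. The members and lists were chosen with earlier results of these data known. The 8 related lists held 206 genes, and 1 listed marker had no identifier.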

Additional observations from a re-analysis of the deposited data

How the results depend on the processing

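At an adjusted p-value under 0.05, 2504 genes differed (1552 higher, 952 lower). DESeq2 called 1596 lower. Unfiltered log2(FPKM + 1) gave 579 (368 higher, 211 lower) and an absolute log2 fold change of 1 or more gave 1585 (1034 and 551). Leaving out 1 library gave 474 to 3940 genes, 337 to 2368 higher and 94 to 1572 lower; the fewest in all came without the first HFD library and the most without the second. Of the 10 genes, 2 were called higher, and 1 with limma-voom, with library size only, with the FPKM fits (both pseudocounts, and unfiltered) and with the fold-change threshold; leaving out 1 library gave 1 to 3. The related lists held 39 calls (32 higher, 7 lower). DESeq2 gave 71 (60 and 11), unfiltered FPKM 7 (5 and 2) and the fold-change threshold 4 lower. Without 1 library these counts ran from 6 to 83, from 4 to 73 and from 2 to 10, again with the most without the second HFD library and the fewest in all without the first.

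A block for the replicate number gave 1886 called genes, of which 1693 were also called without it; 1 of the 10 genes was then called higher, since Mdm2 was lost (adjusted p = 0.0525, edgeR), and 21 genes of the related lists. Libraries with the same number deviated from their diet means with correlations of -0.0858, -0.0556 and -0.00532. The labels do not say whether the number stands for anything shared, and correlations over all genes cannot settle it.

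Signs turned for the following genes, none of which was called, and the cause was not tested. Without 1 library, the log2 fold change of Cdkn1c ran from -0.12 (without the third HFD library) to 0.59 and that of Cdkn2d from -0.27 to 0.070, with 0.0097 and 0.070 without the second ND and the second HFD library. Mdm4 ran from -0.18 to 0.043, Ccnd1 from -0.29 to 0.33, Cdk4 from -0.094 to 0.33, Rb1 from -0.21 to 0.048, Bmi1 from -0.12 to 0.0098 and Hmgb2 from -0.14 to 0.30. Ccnd1 was also -0.033 with limma-voom, -0.028 with the block, -0.036 and -0.047 in the FPKM fits with a pseudocount of 1 and 0.1, and -0.036 unfiltered.

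Cdkn2a had 9 to 35 counts per library, and its fitted change was not past the threshold. Whether this lay in the depth or in the spread between libraries was not tested.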
